A study of Homo sapiens with 14 samples.

Results

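Oxidative phosphorylation is carried out by 5 protein complexes of the inner mitochondrial membrane, and the RNA levels of their subunits were followed here while 2 human myeloid leukemia lines differentiated. The members were the genes whose symbols name a subunit of complex I (NDUFA, NDUFB, NDUFC, NDUFS, NDUFV), complex II (SDH), complex III (UQCR, CYC1), complex IV (COX) or complex V (ATP5), together with the MT- genes for the subunits encoded by mitochondrial DNA. Of the 60707 genes in the deposited table, 89 met this rule, which uses gene symbols and no measured value, although the set was proposed with earlier results of these data known. Of these, 76 are nuclear (36 in complex I, 4 in complex II, 9 in complex III, 11 in complex IV including NDUFA4, and 16 in complex V) and 13 are encoded in the mitochondrion (7, 0, 1, 3 and 2 in the same order).

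RNA was sequenced from PLB-985 cells, which carried a histone H2B-mCherry reporter, and from HL-60 cells, the line from which PLB-985 derives. In each line cells were differentiated for 6 days with 1.3% DMSO in 9% fetal bovine serum (called DMSO), differentiated for 6 days with 1.3% DMSO plus 2% Nutridoma, a serum substitute, in 0.5% serum (called DMSO + Nutridoma), or left undifferentiated. Each of these 6 groups had 2 replicates, prepared on separate days more than 2 months apart, and PLB-985 cells in DMSO + Nutridoma were also taken at days 2 and 4 with 1 library each. Serum was lowered together with the addition of Nutridoma, and only PLB-985 carried the reporter, so that neither pair of differences can be told apart. Cultures were mixed populations of leukemia cells in which differentiation was induced, and in such bulk RNA fewer cells of a type and less RNA per cell cannot be told apart.

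Complexes I to IV pass electrons from NADH and succinate to oxygen, and complexes I, III and IV use the energy to pump protons out of the matrix. Complex V, the ATP synthase, lets the protons back and makes ATP. Mitochondrial DNA encodes a small set of hydrophobic subunits of every complex except complex II, and all other subunits are made in the cytosol from nuclear genes and imported. Neutrophils, the cells that these lines resemble after differentiation, hold few mitochondria and draw most of their ATP from glycolysis.

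Myeloid identity and the change of state were visible in the marker genes. The summed level of 6 myeloid markers (SPI1, CD33, MPO, ELANE, ITGAM, CSF3R) was 475.5 to 5328 normalized FPKM per library. All 5 erythroid markers were listed at 0 in every library, and the 5 lymphocyte markers summed to at most 3.84 normalized FPKM. In PLB-985 DMSO cells ITGAM, the integrin CD11b, rose by 5.11 and MPO, myeloperoxidase, fell by 4.80 on the log2 scale against undifferentiated cells. Of 5 proliferation genes, among them MKI67 and CDK1, all 5 fell in each of the 4 comparisons of a differentiated with an undifferentiated group. The part of proliferation in the results that follow was not tested. Only FPKM values were used, so that the read depth of the libraries is unknown here.

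All values are FPKM (fragments scaled to the length of the transcript and the size of the library), which the authors rescaled per library to a set of uniformly expressed genes, and are called normalized FPKM. Differences are log2 fold changes of normalized FPKM + 1 with their standard error (SE), from a limma fit over 13778 genes in the 12 replicated libraries with replicate as a block. A gene is called lower or higher where its p-value adjusted over all 13778 genes (Benjamini-Hochberg) is under 0.05. Of the 89 members 88 entered this fit. ATP5L2, a rarely expressed relative of the ATP synthase subunit gene ATP5L, was listed at 0 in 5 of the 14 libraries with a median of 0.0247 FPKM, and did not enter.

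Nuclear and mitochondrially encoded members moved apart. In PLB-985 the 76 nuclear members summed to 8855 and 6839 normalized FPKM in replicates 1 and 2 of DMSO cells and to 8320 and 7339 in DMSO + Nutridoma cells, against 13582 and 11756 in undifferentiated cells. In HL-60 the same sum was 9120 and 7795 in DMSO cells and 11049 and 10424 in DMSO + Nutridoma cells, against 13557 and 16271 in undifferentiated cells. In both lines every differentiated library lay below both undifferentiated libraries of its line.

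The 13 mitochondrially encoded members showed a different picture, in which replicate and state both counted. In PLB-985 they summed to 29562 and 62514 normalized FPKM in replicates 1 and 2 of DMSO cells and to 29280 and 49849 in DMSO + Nutridoma cells, against 18487 and 39100 in undifferentiated cells. In HL-60 the sums were 36908 and 68637 in DMSO cells and 45649 and 77326 in DMSO + Nutridoma cells, against 38272 and 45198 in undifferentiated cells. Replicate 2 was above replicate 1 in all 6 groups, and within PLB-985 the replicate 1 sums of differentiated cells were below the replicate 2 sum of undifferentiated cells, so that the groups overlapped although each replicate on its own showed a higher sum after differentiation. In HL-60 DMSO replicate 1 the sum was slightly below that of undifferentiated replicate 1.

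**Figure D1:**
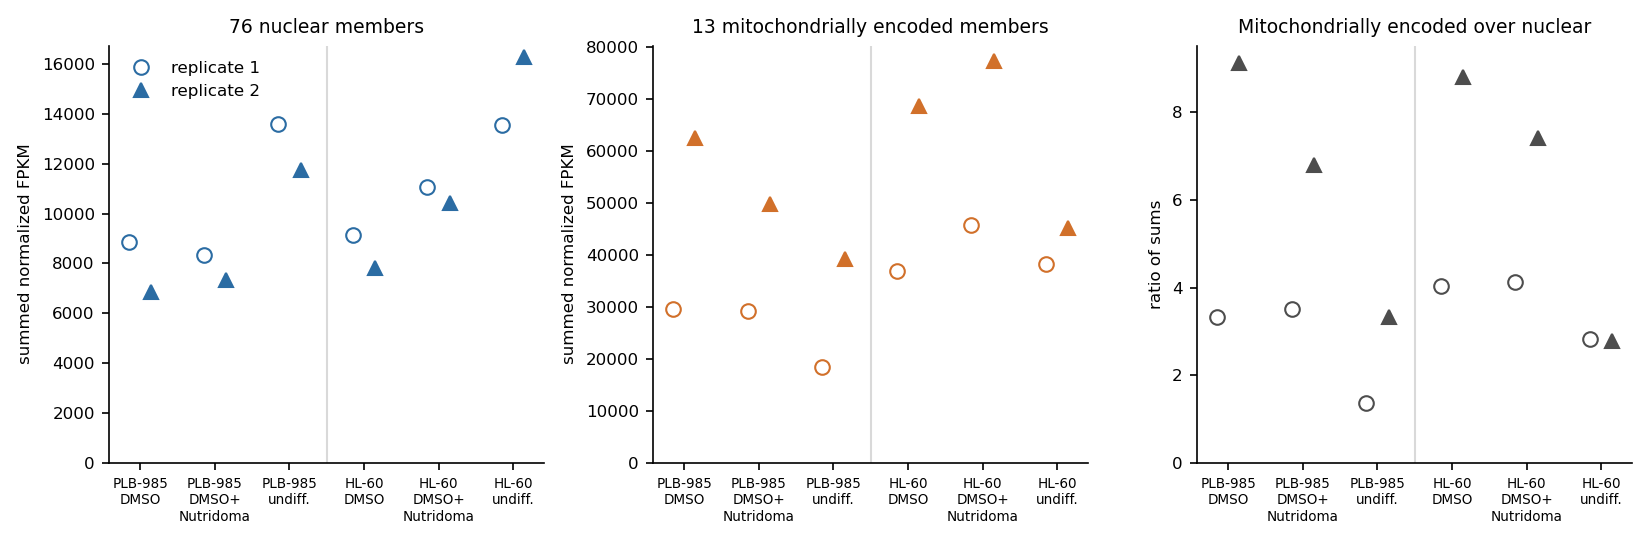
Summed normalized FPKM of the 76 nuclear members (left), of the 13 mitochondrially encoded members (middle) and the ratio of the second sum to the first (right), 1 point per library, with replicate 1 as open circles and replicate 2 as filled triangles. Nuclear sums of differentiated cells lie below those of undifferentiated cells in both lines, and the ratio is 3.34 and 9.14 in PLB-985 DMSO cells against 1.36 and 3.33 in undifferentiated PLB-985 cells.

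The ratio of the mitochondrially encoded to the nuclear sum combines both. It was 3.34 and 9.14 in PLB-985 DMSO cells and 3.52 and 6.79 in PLB-985 DMSO + Nutridoma cells, against 1.36 and 3.33 in undifferentiated PLB-985 cells. In HL-60 it was 4.05 and 8.80 in DMSO cells and 4.13 and 7.42 in DMSO + Nutridoma cells, against 2.82 and 2.78 in undifferentiated cells. The ratio was above that of undifferentiated cells in each of the 8 differentiated libraries, although the lowest of the 8 (3.34) and the highest undifferentiated PLB-985 library (3.33), which came from different replicates, were almost equal. The ratio does not depend on how a library is scaled, since both sums share its scale.

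Gene by gene, more nuclear members were called lower than higher in each comparison. In PLB-985 DMSO cells 55 of 75 nuclear members tested were lower and 3 higher than in undifferentiated cells, where 35.8% of all genes tested were lower and 24.6% higher. In PLB-985 DMSO + Nutridoma cells 51 were lower and 3 higher, against 35.8% and 24% of all genes. In HL-60 DMSO cells 56 were lower and 3 higher, against 34.7% and 26% of all genes. HL-60 DMSO + Nutridoma cells had 36 lower and 3 higher, against 33.6% and 25.5% of all genes. The median log2 fold change over the 75 was -0.77, -0.76, -0.86 and -0.45 in these 4 comparisons, while the median over all genes was -0.15, -0.16, -0.11 and -0.12. Both comparisons within a line share its undifferentiated libraries.

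These counts moved with the scale and with single libraries. When each library was rescaled to the sum of all genes other than MT- genes, 28, 29, 35 and 26 nuclear members were lower and 8, 8, 9 and 10 higher, with medians of -0.38, -0.37 and -0.42 in the first 3 comparisons. The median over all genes was 0.12, 0.14, 0.24 and 0.04 on that scale. The shares of all genes called lower and higher on it are not given here, so these counts are not set against them. The share of lower among called nuclear members was then 77.8%, 78.4%, 79.5% and 72.2%, where it was 94.8%, 94.4%, 94.9% and 92.3% on the authors' scale, and over all genes it was 42.1%, 41.1%, 37.3% and 46.0%, where it was 59.2%, 59.9%, 57.2% and 56.8%. Without PLB-985 DMSO replicate 2, 36 nuclear members were lower in PLB-985 DMSO cells, and without undifferentiated HL-60 replicate 1, 55 were lower in HL-60 DMSO + Nutridoma cells. In undifferentiated HL-60 cells 57 of 75 nuclear members were higher in replicate 2 than in replicate 1, with a median ratio of 1.23, while this ratio lay between 0.854 and 1.01 in the other 5 groups.

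Of the 75 nuclear members, 35 were lower in all 4 comparisons and 59 in at least 1. Between lines the DMSO calls overlapped in 53 genes, which are 96.4% of those lower in PLB-985 and 94.6% of those lower in HL-60. For DMSO + Nutridoma 35 genes were shared, or 68.6% of those lower in PLB-985 and 97.2% of those lower in HL-60. Only ATP5E and NDUFB1 were higher in all 4 comparisons, and 12 nuclear members were called in none of the 4, among them COX6B1, COX8A, NDUFA4, UQCR11, UQCRB, SDHC, ATP5L, ATP5H and ATP5I. How far such calls overlap over all genes was not counted, so these overlaps are not read as particular to the members.

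**Figure D2:**
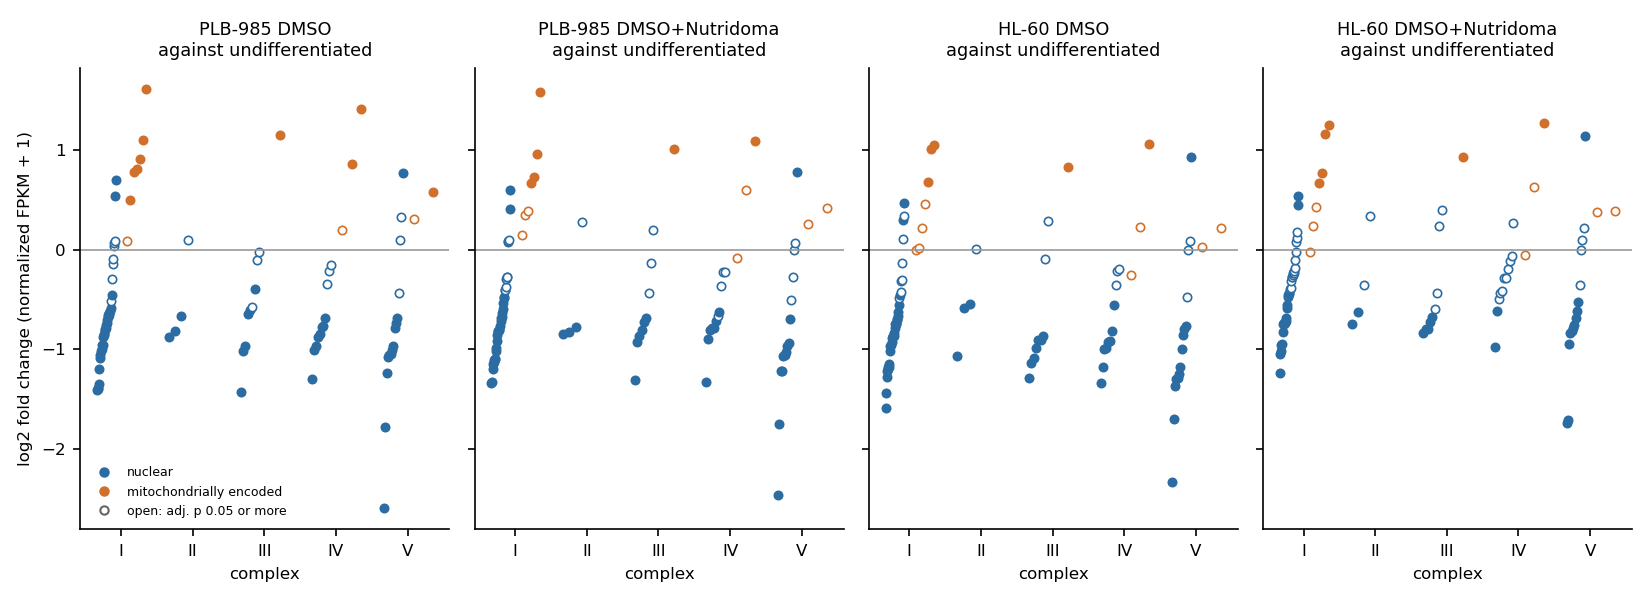
Log2 fold change of normalized FPKM + 1 of each tested member by complex, in the 4 comparisons of differentiated with undifferentiated cells, with nuclear members in blue, mitochondrially encoded members in orange and open symbols for an adjusted p of 0.05 or more. Blue points lie mostly below 0 in every complex, with medians of -0.77, -0.76, -0.86 and -0.45 over the 75 nuclear members, and orange points lie mostly above.

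Complex I oxidizes NADH, and lower calls were found among both its core and its accessory subunits. Of 36 nuclear members 27 were lower and 2 higher in PLB-985 DMSO cells, 25 and 2 in PLB-985 DMSO + Nutridoma cells, 27 and 2 in HL-60 DMSO cells and 17 and 2 in HL-60 DMSO + Nutridoma cells. Among the 7 nuclear core subunits, which hold the flavin and iron-sulfur clusters, 6, 6, 6 and 4 were lower. Among 29 accessory subunits 21, 19, 21 and 13 were lower. The last count is 44.8%, where 33.6% of all genes were lower, and in the first 3 comparisons this share of all genes was 35.8%, 35.8% and 34.7%.

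NDUFS6, an accessory subunit that binds zinc, fell most of complex I in both DMSO comparisons. It had 28.3 and 25.2 normalized FPKM in PLB-985 DMSO cells and 29.7 and 34.8 in PLB-985 DMSO + Nutridoma cells, against 72.6 and 72.4 in undifferentiated PLB-985 cells. The HL-60 values were 42.0 and 46.8 in DMSO cells and 59.3 and 80.5 in DMSO + Nutridoma cells, against 105.4 and 174.5 in undifferentiated cells. No differentiated library reached an undifferentiated library of its line. The fall was -1.41 ± 0.20 (SE; adjusted p = 0.000443) in PLB-985 DMSO cells and -1.59 ± 0.20 (adjusted p = 0.000237) in HL-60 DMSO cells.

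NDUFB9, an accessory subunit of the membrane arm, fell most in PLB-985 DMSO + Nutridoma cells (-1.34 ± 0.17, adjusted p = 0.000284). It had 64.8 and 65.1 normalized FPKM there, against 168.7 and 164.1 in undifferentiated cells. In HL-60 DMSO + Nutridoma cells the lowest was NDUFB10, another membrane arm subunit, with 125.2 and 100.9, against 209.6 and 337.9 in undifferentiated cells (-1.24 ± 0.21, adjusted p = 0.00149). In PLB-985 the changes of NDUFB10 were -0.66 for DMSO and -0.69 for DMSO + Nutridoma.

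A few complex I transcripts did the opposite. NDUFB1, a small accessory subunit of the membrane arm, had 176.8 and 175.9 normalized FPKM in PLB-985 DMSO cells and 160.2 and 169.4 in PLB-985 DMSO + Nutridoma cells, against 111.9 and 105.0 in undifferentiated cells. HL-60 cells showed 164.7 and 178.1 in DMSO cells and 185.7 and 194.7 in DMSO + Nutridoma cells, against 134.1 and 144.6 in undifferentiated cells. All 8 differentiated libraries were above those of undifferentiated cells of the same line. The rise was 0.70, 0.60, 0.30 and 0.45 (SE 0.094 each), and the call in HL-60 DMSO cells (adjusted p = 0.0253) was lost without HL-60 DMSO replicate 1 or 2 or undifferentiated replicate 1, with adjusted p-values of 0.0713 to 0.148.

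NDUFA2, an accessory subunit of the arm that faces the matrix, was called higher in 3 comparisons, by 0.54, 0.41 and 0.46 (adjusted p = 0.0154, 0.0463 and 0.0293), and had a change of 0.11 in HL-60 DMSO + Nutridoma cells. These 3 calls were fragile. Each was lost on leaving out single libraries, with adjusted p-values of up to 0.109, 0.175 and 0.180. NDUFA1, a small membrane arm subunit encoded on the X chromosome, had the highest change in HL-60 DMSO + Nutridoma cells, with 86.1 and 115.7 normalized FPKM against 58.6 and 79.7 in undifferentiated cells (0.54 ± 0.15, adjusted p = 0.0165). Its call was lost without undifferentiated HL-60 replicate 1 (adjusted p = 0.101) or DMSO + Nutridoma replicate 2 (adjusted p = 0.102).

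Complex II, succinate dehydrogenase, takes electrons from succinate and is the only complex with no mitochondrially encoded subunit. Its 4 genes split 3 to 1. SDHB, the iron-sulfur subunit, had 131.3 and 54.9 normalized FPKM in PLB-985 DMSO cells and 128.8 and 53.7 in DMSO + Nutridoma cells, against 234.7 and 96.2 in undifferentiated cells. In HL-60 it had 151.9 and 64.1 in DMSO cells and 184.2 and 82.1 in DMSO + Nutridoma cells, against 283.2 and 152.5 in undifferentiated cells. Replicate 1 was above replicate 2 in every group, and each differentiated library was below the undifferentiated library of its own replicate. Across replicates the groups overlapped, except HL-60 DMSO, which lay just below both undifferentiated libraries.

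Its fall was -0.82, -0.85, -1.07 and -0.75 (SE 0.12 each; adjusted p = 0.000509, 0.000432, 0.000131 and 0.000829), and none of the 4 calls remained when the replicate block was left out. SDHA, the subunit that carries the flavin, fell by 0.88, 0.83, 0.58 and 0.62 (SE 0.14 each), with 26.9 and 26.2 normalized FPKM in PLB-985 DMSO cells, against 49.3 and 50.0 in undifferentiated cells. SDHD, a membrane anchor, was lower in the first 3 comparisons (-0.67, -0.78 and -0.55) and had a change of -0.35 in HL-60 DMSO + Nutridoma cells (adjusted p = 0.0821). The HL-60 DMSO call was lost without undifferentiated replicate 2 (-0.32, adjusted p = 0.091) or DMSO replicate 2 (adjusted p = 0.110), and the PLB-985 DMSO call without undifferentiated replicate 1 (adjusted p = 0.0589).

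SDHC, the partner of SDHD in the membrane anchor, was called in none of the 4 comparisons. It had 83.6 and 78.2 normalized FPKM in PLB-985 DMSO cells and 91.5 and 92.7 in DMSO + Nutridoma cells, against 71.9 and 79.9 in undifferentiated cells. The HL-60 values were 74.9 and 77.5 in DMSO cells and 95.6 and 96.2 in DMSO + Nutridoma cells, against 60.8 and 94.7 in undifferentiated cells. In HL-60 both DMSO libraries lay between the undifferentiated ones, and both DMSO + Nutridoma libraries lay above them, the higher of the undifferentiated values being close. The changes were 0.09, 0.28, 0.01 and 0.33 with an SE of 0.17.

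Motifs known in respiratory gene promoters were counted in windows of 250 bases before to 50 after the start site, on both strands. A window was at hand for 62 of the 76 nuclear members (RefSeq, GRCh38.p14). The NRF1 half-site (GCATGCGC or GCGCATGC) was found for 22.6% of these 62 and for 3.68% of 27305 genes, the YY1 core (AAGATGGC or GCCATCTT) for 19.4% and 3.52%, the ETS core (CCGGAAG or CTTCCGG) for 32.3% and 12.2%, and the CCAAT box (CCAAT or ATTGG) for 32.3% and 39.7%. The 27305 are all genes with a window, whether or not they were tested here, and the CCAAT box was added after the sequences were seen. Among the 29 members that had a window and were lower in all 4 comparisons, the shares were 31.0%, 31.0%, 20.7% and 27.6% in the same order (9, 9, 6 and 8 genes). Among the other 33 they were 15.2%, 9.09%, 42.4% and 36.4% (5, 3, 14 and 12 genes). A match describes these letters only, and its part in the changes was not tested.

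The windows of SDHB and NDUFS6, the member that fell most in complex II or in complex I in several comparisons, are shown because they hold these motifs, in capitals. That of SDHB (chr1:17053983-17054282, minus strand) holds an NRF1 half-site 200 bases before the start site, an ETS core 128 bases before it and a YY1 core 10 bases after it. That of NDUFS6 (chr5:1801157-1801456, plus strand) holds an NRF1 half-site 46 bases before the start site. The window of COX5A, which fell most in complex IV, held none of these motifs. Nor did those of NDUFB10 and UQCRFS1, lowest of complexes I and III in HL-60 DMSO + Nutridoma cells. That of ATP5G1 held CCAAT boxes only. CYC1, NDUFB9 and ATP5D had no window at hand.
SDHB: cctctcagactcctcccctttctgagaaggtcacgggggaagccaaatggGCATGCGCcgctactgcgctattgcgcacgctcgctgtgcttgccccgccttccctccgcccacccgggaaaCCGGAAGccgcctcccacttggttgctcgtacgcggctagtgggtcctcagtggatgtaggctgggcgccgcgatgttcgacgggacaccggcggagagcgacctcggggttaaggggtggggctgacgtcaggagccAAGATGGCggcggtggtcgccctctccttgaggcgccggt
NDUFS6: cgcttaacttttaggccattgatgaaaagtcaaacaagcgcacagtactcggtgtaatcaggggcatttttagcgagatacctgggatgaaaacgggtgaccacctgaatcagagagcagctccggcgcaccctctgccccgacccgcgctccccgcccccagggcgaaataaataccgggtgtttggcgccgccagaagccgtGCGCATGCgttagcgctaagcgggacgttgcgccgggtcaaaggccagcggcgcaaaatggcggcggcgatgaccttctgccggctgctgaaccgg

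Complex III passes electrons on to cytochrome c. Of its 9 nuclear members 6, 6, 7 and 5 were lower in the 4 comparisons and none was higher. Of all genes 35.8%, 35.8%, 34.7% and 33.6% were lower. CYC1, the cytochrome c1 subunit that hands the electron over, had 63.2 and 39.1 normalized FPKM in PLB-985 DMSO cells and 67.8 and 43.0 in DMSO + Nutridoma cells, against 159.9 and 114.7 in undifferentiated cells. HL-60 cells showed 40.7 and 26.0 in DMSO cells and 55.2 and 38.9 in DMSO + Nutridoma cells, against 88.2 and 74.8 in undifferentiated cells. The differentiated libraries were all below those of undifferentiated cells, by -1.43, -1.31, -1.29 and -0.80 (SE 0.12 each; adjusted p = 4.61e-05, 7.43e-05, 7.45e-05 and 0.00088).

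UQCRFS1, the Rieske iron-sulfur protein, was the lowest of complex III in HL-60 DMSO + Nutridoma cells, with 14.1 and 17.4 normalized FPKM against 23.8 and 35.0 in undifferentiated cells (-0.84 ± 0.15, adjusted p = 0.00149). At the other end UQCR11, a small accessory subunit, had changes of -0.02, 0.19, 0.28 and 0.40 (SE 0.21), with adjusted p-values of 0.141 to 0.939. UQCRB, an accessory subunit next to the quinone site, also passed no test, with -0.10, -0.14, -0.09 and 0.23.

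Complex IV, cytochrome c oxidase, reduces oxygen to water. Of its 11 nuclear members 8, 7, 8 and 2 were lower and none was higher. The last count is 18.2%, below the 33.6% of all genes lower in HL-60 DMSO + Nutridoma cells. COX5A fell most of them in each comparison. It had 152.8 and 129.5 normalized FPKM in PLB-985 DMSO cells and 141.1 and 134.8 in DMSO + Nutridoma cells, against 351.7 and 345.2 in undifferentiated cells. In HL-60 it had 169.5 and 164.6 in DMSO cells and 205.7 and 225.1 in DMSO + Nutridoma cells, against 372.7 and 485.1 in undifferentiated cells. All differentiated values were far below the undifferentiated ones of the same line, with changes of -1.30, -1.33, -1.34 and -0.98 (SE 0.14 each; adjusted p = 0.00014, 0.000135, 0.000124 and 0.000648).

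COX5B, the zinc-binding subunit, was the other complex IV member lower in all 4 comparisons (-1.005, -0.79, -0.91 and -0.61). COX6B1, COX8A and NDUFA4 passed no test in any of them. COX6B1, a subunit on the side of the intermembrane space, had changes of -0.15, -0.22, -0.36 and -0.07, and COX8A, the smallest subunit, had -0.21, -0.22, -0.20 and -0.12. NDUFA4, named for complex I and found in complex IV, had -0.34, -0.37, -0.22 and 0.27.

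Complex V held both the largest fall and the largest rise among nuclear members. Of 15 tested 11, 10, 11 and 10 were lower, where 35.8%, 35.8%, 34.7% and 33.6% of all genes were. ATP5E was the only one higher in each comparison. The rotor ring of the ATP synthase is made of subunit c, which 3 genes on different chromosomes encode as the same mature protein: ATP5G1 (chromosome 17), ATP5G2 (chromosome 12) and ATP5G3 (chromosome 2). ATP5G1 had 36.5 and 26.8 normalized FPKM in PLB-985 DMSO cells and 35.3 and 33.3 in DMSO + Nutridoma cells, against 234.6 and 160.6 in undifferentiated cells. The HL-60 values were 53.4 and 46.4 in DMSO cells and 76.7 and 77.0 in DMSO + Nutridoma cells, against 236.4 and 272.8 in undifferentiated cells.

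No differentiated value of ATP5G1 came near an undifferentiated value. It fell by 2.60, 2.47, 2.33 and 1.71 on the log2 scale (SE 0.18 each; adjusted p = 1.63e-05, 2.38e-05, 2.63e-05 and 0.000107), the largest fall of a nuclear member in the first 3 comparisons. ATP5G3 fell by 1.24, 1.22, 1.37 and 0.75 (SE 0.23 each), and its call in HL-60 DMSO + Nutridoma cells (adjusted p = 0.0222) was lost without undifferentiated HL-60 replicate 2 or either DMSO + Nutridoma replicate, with adjusted p-values of 0.0519 or more. ATP5G2 fell by 0.79, 0.94, 0.77 and 0.62 (SE 0.11 each).

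The make-up of the subunit c transcripts therefore shifted away from ATP5G1. ATP5G1 held 8.83% and 7.39% of the summed normalized FPKM of the 3 genes in PLB-985 DMSO cells and 9.71% and 9.02% in DMSO + Nutridoma cells, against 25.7% and 19.1% in undifferentiated cells. In HL-60 the share was 14.7% and 12.7% in DMSO cells and 17.05% and 15.8% in DMSO + Nutridoma cells, against 28.6% and 28.4% in undifferentiated cells. In both lines the ranges did not overlap, and since the 3 genes share a library's scale the share does not depend on it. The sum of the 3 genes was 413.0 and 363.4 in PLB-985 DMSO cells and 363.3 and 369.1 in DMSO + Nutridoma cells, against 912.2 and 840.3 in undifferentiated cells.

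ATP5D and ATP5E encode the delta and epsilon subunits, which sit side by side on the central stalk of the synthase, and their transcripts went opposite ways. ATP5D had 76.6 and 47.9 normalized FPKM in PLB-985 DMSO cells and 66.8 and 57.4 in DMSO + Nutridoma cells, against 255.6 and 173.4 in undifferentiated cells. HL-60 cells showed 77.6 and 60.3 in DMSO cells and 82.4 and 54.2 in DMSO + Nutridoma cells, against 241.1 and 210.7 in undifferentiated cells. Its fall was nearly the same in the 4 comparisons (-1.78, -1.75, -1.71 and -1.74, SE 0.14 each), and it was the lowest nuclear member in HL-60 DMSO + Nutridoma cells.

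ATP5E had 174.9 and 127.6 normalized FPKM in PLB-985 DMSO cells and 167.8 and 134.4 in DMSO + Nutridoma cells, against 100.4 and 75.8 in undifferentiated cells. In HL-60 it had 190.9 and 151.3 in DMSO cells and 207.7 and 185.4 in DMSO + Nutridoma cells, against 85.1 and 92.5 in undifferentiated cells. All differentiated libraries were above the undifferentiated ones, by 0.77, 0.78, 0.93 and 1.14 (SE 0.14 each; adjusted p = 0.0021, 0.00203, 0.000782 and 0.000297). No alternative setting and no omitted library removed these 4 calls.

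**Figure D3:**
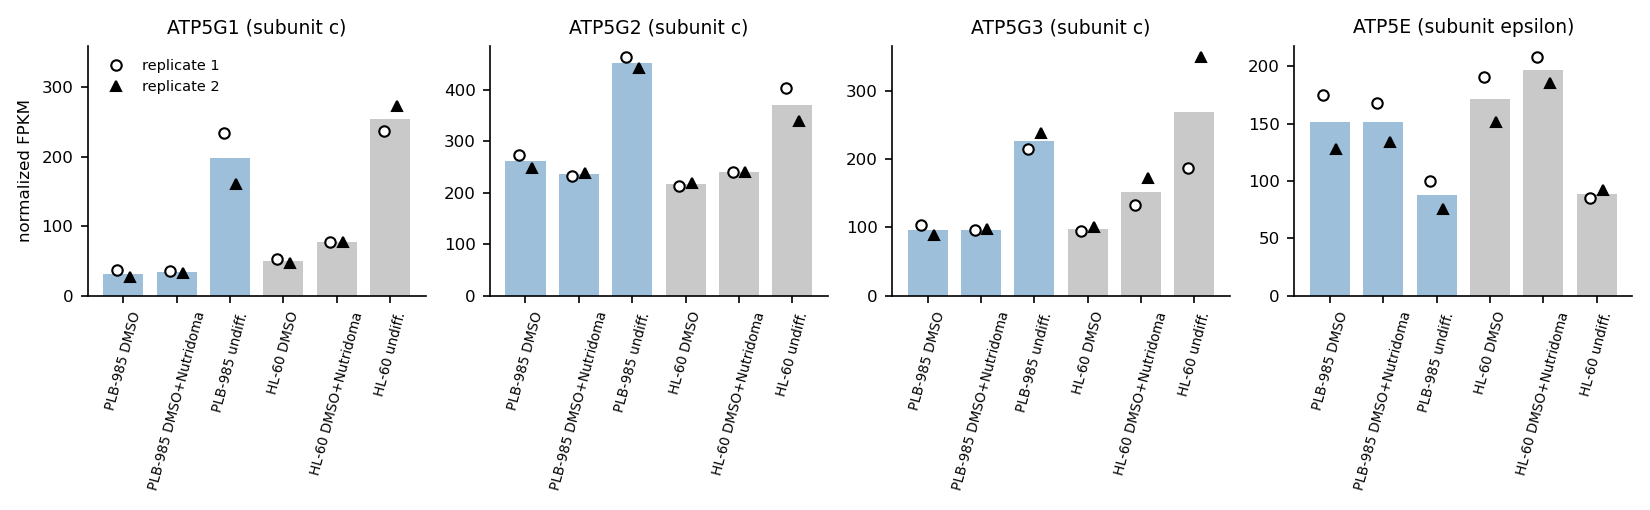
Normalized FPKM of the subunit c genes ATP5G1, ATP5G2 and ATP5G3 and of ATP5E, with bars for the mean of the 2 replicates, open circles for replicate 1 and filled triangles for replicate 2, in DMSO, DMSO + Nutridoma and undifferentiated cells of each line. ATP5G1 lies between 26.8 and 77.0 in differentiated libraries and between 160.6 and 272.8 in undifferentiated ones, and ATP5E lies above its undifferentiated values in every differentiated library.

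The promoter windows of ATP5G1 and ATP5E, the nuclear members with the largest fall and the largest rise, are shown because each holds 4 CCAAT boxes, in capitals (CCAAT, or ATTGG on the other strand). Windows with 4 or more boxes were found for 3 of 62 members and for 1.15% of genes, and this motif was added after the sequences were seen. The ATP5G1 window (now ATP5MC1; chr17:48892537-48892836, plus strand) has its boxes 181, 78, 48 and 22 bases before the start site, all read on the gene's strand. In the ATP5E window (now ATP5F1E; chr20:59032286-59032585, minus strand) they stand 194, 158, 126 and 46 bases before it, and 3 are on the other strand.
ATP5G1: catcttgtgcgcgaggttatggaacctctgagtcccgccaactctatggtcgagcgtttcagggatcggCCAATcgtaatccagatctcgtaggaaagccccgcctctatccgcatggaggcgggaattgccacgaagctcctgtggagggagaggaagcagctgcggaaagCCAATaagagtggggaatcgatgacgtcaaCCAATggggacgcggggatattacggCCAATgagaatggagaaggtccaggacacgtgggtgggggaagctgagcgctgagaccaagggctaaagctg
ATP5E: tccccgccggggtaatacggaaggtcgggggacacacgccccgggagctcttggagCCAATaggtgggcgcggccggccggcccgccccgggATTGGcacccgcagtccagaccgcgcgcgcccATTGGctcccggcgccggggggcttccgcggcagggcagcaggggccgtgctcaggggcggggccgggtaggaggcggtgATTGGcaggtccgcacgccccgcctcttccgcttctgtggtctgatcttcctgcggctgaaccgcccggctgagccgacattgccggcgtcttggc

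The other complex V members fell or passed no test. ATP5A1 and ATP5B, the alpha and beta subunits that form the catalytic head, were lower in all 4 comparisons (ATP5A1 by -1.08, -1.22, -1.18 and -0.95, ATP5B by -0.97, -1.06, -1.29 and -0.83). ATP5B had the highest mean normalized FPKM of the nuclear members over the 14 libraries, although ATP5J2 was above it in each replicate 2 library. ATP5B had 547.3 and 260.1 in PLB-985 DMSO cells, against 1006 and 546.7 in undifferentiated cells. ATP5H, ATP5I and ATP5L, which belong to the peripheral stalk or the membrane part, were called in none, with changes between -0.48 and 0.33.

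The mitochondrially encoded members are cut from long transcripts of the mitochondrial genome, and most are polyadenylated and so enter poly(A) libraries. The MT-ND6 mRNA is known to lack such a tail. By FPKM the mitochondrially encoded members ranked among the highest genes of these cells. MT-ATP8 ranked between 1 and 13 of all 60707 genes in normalized FPKM over the 14 libraries, and 12 of the 13 members averaged at least 1205 normalized FPKM. The exception was MT-ND6, the only one encoded on the light strand, with 17.3 to 56.2 normalized FPKM. FPKM is scaled to length and MT-ATP8 is only 207 bases long, so its rank is not one of transcript number. MT-ATP8 made up 18.5% to 26.9% of the summed normalized FPKM of the 13 members in each library. MT-ATP8 and MT-ATP6, both subunits of complex V, share 46 bases, or 22.2% of MT-ATP8 and 6.75% of MT-ATP6, so that reads there cannot be assigned to either gene alone. The shared stretch (chrM:8527-8572, plus strand, GRCh38) is shown with the start codon of MT-ATP6 and the stop codon of MT-ATP8 in capitals.
MT-ATP8 and MT-ATP6: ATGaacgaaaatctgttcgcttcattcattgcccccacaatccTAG
MT-ND4L and MT-ND4 share 7 bases in the same way.

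No mitochondrially encoded member was called lower in any of the 4 comparisons. Of the 13, 10 were higher in PLB-985 DMSO cells, 6 in PLB-985 DMSO + Nutridoma cells, 5 in HL-60 DMSO cells and 6 in HL-60 DMSO + Nutridoma cells, which are to be read against the 24.6%, 24%, 26% and 25.5% of all genes called higher. The medians of the log2 fold changes were 0.81, 0.60, 0.23 and 0.63. MT-CO1, MT-CYB, MT-ND4, MT-ND5 and MT-ND6 were higher in all 4 comparisons, and MT-ND2, MT-CO3 and MT-ATP8 in none. The members called in HL-60 were also called in PLB-985 under the same protocol, as 5 of 10 for DMSO and 6 of 6 for DMSO + Nutridoma. The matching overlap over all genes was not counted.

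These calls leaned on the replicate block and on single libraries. With no replicate block 1, 0, 1 and 1 of the 13 were called. In PLB-985 DMSO cells 4 were called without DMSO replicate 2 and 4 without undifferentiated replicate 1. In PLB-985 DMSO + Nutridoma cells 3 were called without either DMSO + Nutridoma replicate and 2 without undifferentiated replicate 1. In HL-60 DMSO cells 2 were called without DMSO replicate 2, 9 without undifferentiated replicate 1 and 3 without undifferentiated replicate 2, and in HL-60 DMSO + Nutridoma cells 3 without DMSO + Nutridoma replicate 1 and 11 without undifferentiated replicate 1. Rescaled to the genes other than MT-, 11, 12, 10 and 11 of the 13 were called higher. That scale also raised the median over all genes, to 0.12, 0.14, 0.24 and 0.04. The share of all genes called higher on it is not given here, so these larger counts are not read as a stronger rise.

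The replicates were also compared one by one. Against the undifferentiated library of the same replicate, 13 and 13 of the 13 members were higher in replicates 1 and 2 of PLB-985 DMSO cells, 13 and 11 in PLB-985 DMSO + Nutridoma cells, 7 and 13 in HL-60 DMSO cells and 11 and 13 in HL-60 DMSO + Nutridoma cells. The median log2 ratios were 0.77 and 0.85, 0.74 and 0.40, 0.02 and 0.57, and 0.20 and 0.80. For nuclear members the same medians were -0.67 and -0.82, -0.75 and -0.77, -0.59 and -1.09, and -0.24 and -0.69. In each of the 8 pairs the mitochondrially encoded median was above 0 and the nuclear median below it.

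MT-ND5, a proton-pumping subunit of complex I, rose most in PLB-985. It had 765.8 and 1890 normalized FPKM in PLB-985 DMSO cells and 828.1 and 1681 in DMSO + Nutridoma cells, against 264.5 and 584.4 in undifferentiated cells. The HL-60 values were 1152 and 2509 in DMSO cells and 1464 and 2596 in DMSO + Nutridoma cells, against 666.4 and 1007 in undifferentiated cells. All differentiated libraries were above the undifferentiated ones of their line although the replicates were far apart. The rise was 1.61, 1.58, 1.05 and 1.25 (SE 0.17 each; adjusted p = 0.000113, 0.000131, 0.00102 and 0.00044).

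MT-CO1, the catalytic subunit of complex IV, had 3766 and 9201 normalized FPKM in PLB-985 DMSO cells and 3472 and 6418 in DMSO + Nutridoma cells, against 1498 and 3278 in undifferentiated cells. HL-60 cells showed 4845 and 9885 in DMSO cells and 5770 and 11175 in DMSO + Nutridoma cells, against 3171 and 3477 in undifferentiated cells. Again no differentiated library lay below an undifferentiated one of its line. It rose by 1.41, 1.09, 1.06 and 1.27 (SE 0.25 each; adjusted p = 0.00171, 0.0064, 0.00723 and 0.003). The PLB-985 DMSO + Nutridoma call was lost without undifferentiated PLB-985 replicate 1 (change 0.96). That in HL-60 DMSO cells was lost without HL-60 DMSO replicate 2 (change 0.98).

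MT-CYB, the cytochrome b subunit of complex III, rose by 1.15, 1.00, 0.83 and 0.93 (SE 0.26 each), and MT-ND4, a proton-pumping subunit of complex I, by 1.10, 0.96, 0.67 and 0.77 (SE 0.20 each). Without undifferentiated HL-60 replicate 2 the HL-60 DMSO values were 0.33 for MT-CYB (adjusted p = 0.0995) and 0.39 for MT-ND4 (adjusted p = 0.103), and MT-ND4 had 0.49 in HL-60 DMSO + Nutridoma cells (adjusted p = 0.0545). Each of the 4 MT-CYB calls was lost on leaving out at least 1 library, with adjusted p-values of 0.051 to 0.145. MT-ND6, another membrane subunit of complex I, had 31.7 and 44.3 normalized FPKM in PLB-985 DMSO cells, against 17.3 and 21.8 in undifferentiated cells, and 38.1 and 56.2 in HL-60 DMSO cells, against 25.2 and 20.2 in undifferentiated cells. Its rise was 0.91, 0.67, 1.01 and 1.16 (SE 0.19 each). The MT-ND6 call in PLB-985 DMSO + Nutridoma cells was lost when any library of the groups compared was left out, with changes of 0.61 to 0.72. Since the counting is not stated to use strand, reads of MT-ND6 cannot be told apart from RNA of the opposite strand at the same place.

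MT-CO3, a core subunit of complex IV, did not follow MT-CO1. It had 2432 and 5598 normalized FPKM in PLB-985 DMSO cells and 2241 and 4097 in DMSO + Nutridoma cells, against 2028 and 5085 in undifferentiated cells. In HL-60 it had 3799 and 7192 in DMSO cells and 4649 and 7757 in DMSO + Nutridoma cells, against 5641 and 6864 in undifferentiated cells. The groups overlapped in every case and the changes were 0.20, -0.08, -0.25 and -0.05 (SE 0.24 each).

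Within a library the ratio of MT-CO1 to MT-CO3 was 1.24 to 1.64 in the 8 differentiated libraries of day 6, against 0.507 to 0.739 in the 4 undifferentiated libraries. That of MT-ND5 to MT-ND1 was 0.990 to 1.75, against 0.454 to 0.683. Neither ratio depends on a library's scale, both ranges were apart, and both replicates gave them alike although their MT- levels differed. Such ratios show unequal change between these genes and not which of them changed.

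The remaining members lay between these. MT-ND1 and MT-ND3, subunits of complex I, were called higher in PLB-985 DMSO cells (0.78 and 0.50), and so were MT-CO2, a subunit of complex IV that binds copper (0.86), and MT-ATP6, the proton channel subunit of complex V (0.58). None of these 4 was called in the other comparisons, where MT-CO2 had 0.60, 0.23 and 0.63, and all 4 calls were lost without PLB-985 DMSO replicate 2 or undifferentiated PLB-985 replicate 1. The call of MT-ATP6 was also lost on leaving out several other libraries, with adjusted p-values of 0.0525 to 0.0672. MT-ND4L, a small membrane subunit of complex I, was higher in 3 comparisons (0.81, 0.73 and 0.67) and had a change of 0.45 in HL-60 DMSO cells. Each of its 3 calls was also lost on leaving out single libraries. The changes were then 0.60 and 0.65 in PLB-985 DMSO cells, 0.57 to 0.77 in PLB-985 DMSO + Nutridoma cells and 0.40 and 0.56 in HL-60 DMSO + Nutridoma cells. MT-ND2 had 0.09, 0.15, -0.01 and 0.42, and MT-ATP8 had 0.31, 0.26, 0.02 and 0.38.

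**Figure D4:**
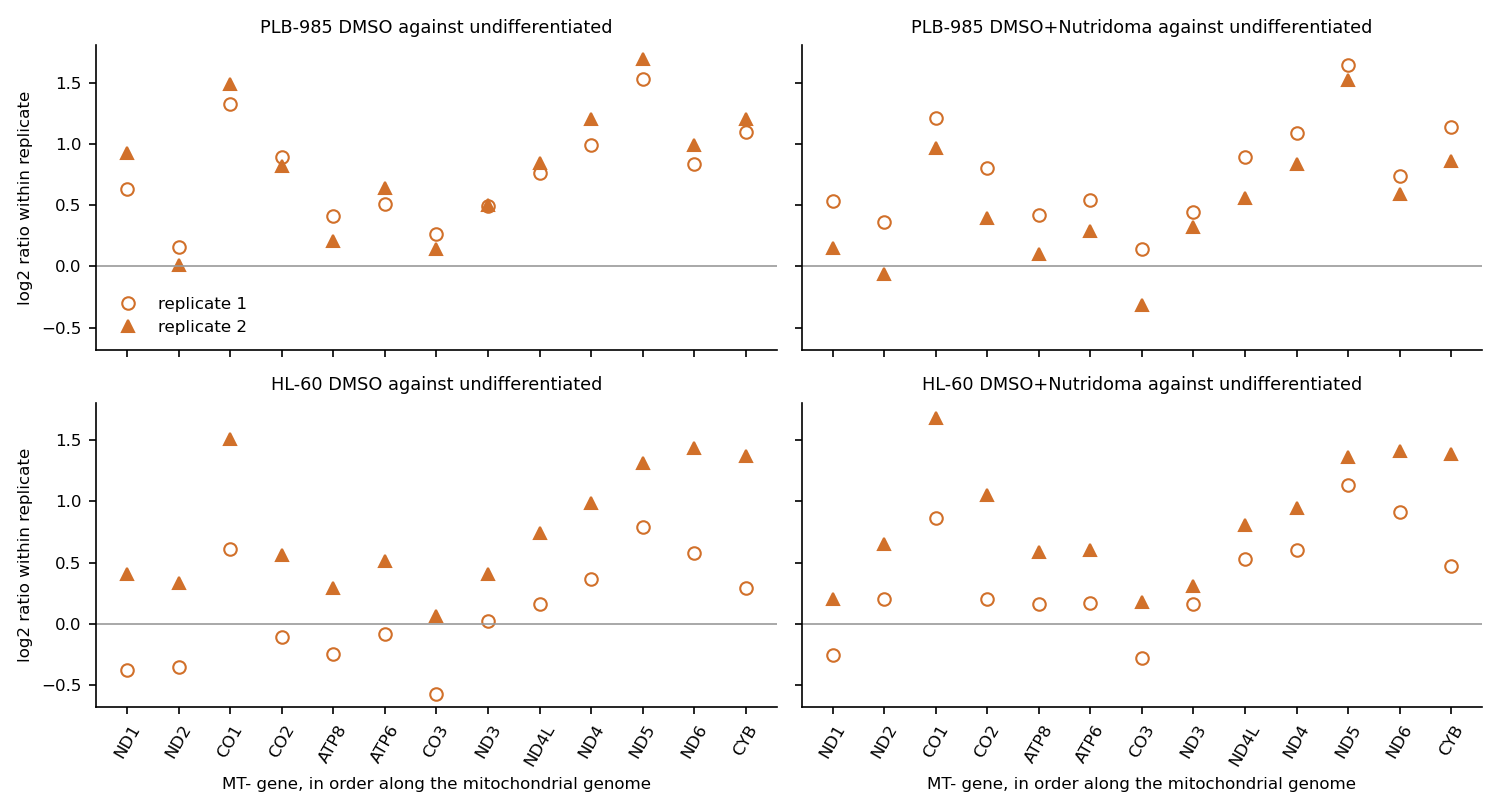
Log2 ratio of normalized FPKM + 1 of each mitochondrially encoded member to the undifferentiated library of the same line and replicate, in the order of the genes along the mitochondrial genome, with replicates 1 and 2 shown apart. MT-CO1 and MT-ND5 are above 0 in all 8 pairs, and 7 of the 13 members are above 0 in HL-60 DMSO replicate 1.

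Replicates of 1 group differed in the mitochondrially encoded members. The median over the 13 members of the ratio of replicate 2 to replicate 1 was 2.30 in DMSO, 1.75 in DMSO + Nutridoma and 2.19 in undifferentiated PLB-985 cells, and 1.99, 1.71 and 1.22 in the same states of HL-60. Over the nuclear members this median was 0.854, 0.946, 0.915, 0.971, 1.01 and 1.23. Of the 13 mitochondrially encoded members 12 were higher in replicate 2 in all 6 groups, the exception being MT-ND6. Of the 75 nuclear members 16 were higher in replicate 1 in all 6 groups, 9 were higher in replicate 2 in all 6, and 50 were mixed.

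This gap has to be kept in mind for the time course. The ratio of mitochondrially encoded to nuclear sums was 4.78 at day 2 and 2.27 at day 4 in PLB-985 DMSO + Nutridoma cells, and 3.52 and 6.79 at day 6 in replicates 1 and 2. All 12 members that were higher in replicate 2 in every group were also higher at day 2 than at day 4. The 16 nuclear members higher in replicate 1 throughout were all lower at day 2 than at day 4, and the 9 higher in replicate 2 throughout were all higher at day 2. Across genes, which are not independent and share these libraries, the log2 ratio of day 2 to day 4 correlated with the median replicate ratio at r = 0.90 over 75 nuclear members, 0.62 over 13 mitochondrially encoded members and 0.80 over all 13778 genes.

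The labels do not say with which replicate the libraries of days 2 and 4 were prepared, so that time and preparation cannot be told apart and no change between days is read from these libraries. ATP5G1 had 39.8 normalized FPKM at day 2 and 42.3 at day 4, then 35.3 and 33.3 at day 6, with 234.6 and 160.6 in undifferentiated cells. COX5A had 185.6 at day 2, 169.6 at day 4 and 141.1 and 134.8 at day 6, with 351.7 and 345.2 in undifferentiated cells. In both genes the values of days 2 and 4 were below both undifferentiated values, but with 1 library each no test was possible.

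**Figure D5:**
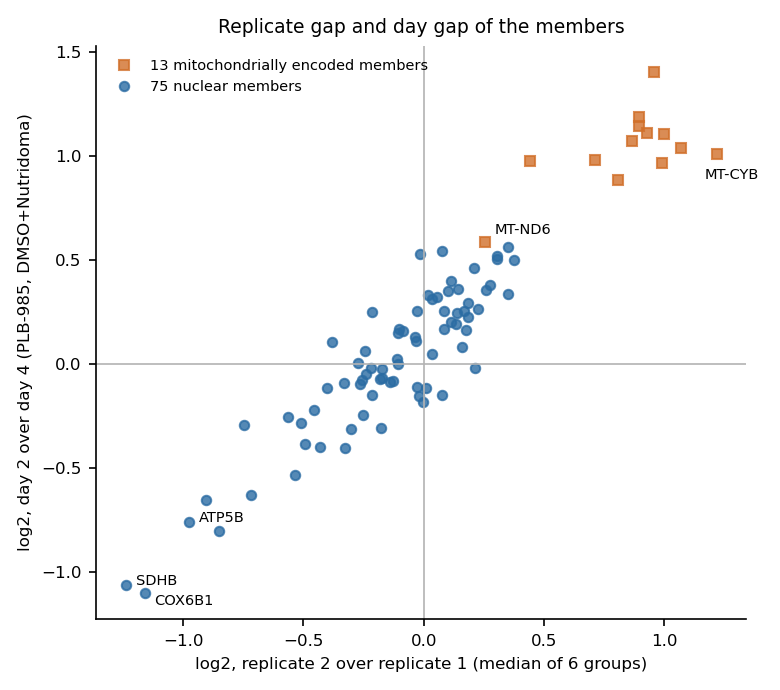
Log2 ratio of day 2 to day 4 in PLB-985 DMSO + Nutridoma cells (y axis) against the median log2 ratio of replicate 2 to replicate 1 over the 6 replicated groups (x axis), 1 point per member. The points follow the replicate ratio (r = 0.90 over 75 nuclear members and 0.62 over 13 mitochondrially encoded members).

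The protocols were then set against each other within each line. In PLB-985 no member was called between DMSO + Nutridoma and DMSO cells, where 1.05% of all genes were called in either direction. With 2 replicates a group, a missed call does not show that levels were alike. At an unadjusted p under 0.05 there were 3 nuclear and 0 mitochondrially encoded members, and the medians were 0.03 over nuclear and -0.14 over mitochondrially encoded members. In HL-60 6 of 75 nuclear members were higher in DMSO + Nutridoma than in DMSO cells, a share slightly below the 9.86% of all genes. None was lower, and the share of all genes that were lower is not given here. The median over the 75 was 0.31, with 27 members at an unadjusted p under 0.05, and that over the 13 mitochondrially encoded members, none of which was called, was 0.20. The share of all genes at that unadjusted level is not given here for either line. These unadjusted counts are therefore not read as results about the members. Within replicates 1 and 2 the HL-60 medians were 0.26 and 0.39 over nuclear members and 0.29 and 0.07 over mitochondrially encoded members.

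The 6 genes were NDUFV2 (0.99), COX7C (0.71), NDUFA6 (0.65), NDUFA9 (0.55), CYC1 (0.50) and NDUFS4 (0.46). NDUFV2, a core subunit of complex I that holds an iron-sulfur cluster, had 137.6 and 197.1 normalized FPKM in HL-60 DMSO + Nutridoma cells, against 90.4 and 74.7 in DMSO cells (adjusted p = 0.0192). COX7C, a small subunit of complex IV, had 440.0 and 401.7, against 303.8 and 217.8 (adjusted p = 0.0321). Both pairs of replicates were apart from each other.

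The count of 6 was unstable. It was 0 without either HL-60 DMSO replicate, 1 without HL-60 DMSO + Nutridoma replicate 2 or without either PLB-985 DMSO + Nutridoma replicate, 2 without either PLB-985 DMSO replicate and 30 without either undifferentiated HL-60 replicate, although these last enter only the estimate of spread and the block. Rescaled to the genes other than MT- it was 1 and the median was 0.09.

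PLB-985 and HL-60 were compared in each state. In undifferentiated cells 9 nuclear members were lower and 3 higher in PLB-985 than in HL-60, where 6.25% of all genes were lower and 7.88% higher, and 4 of the 13 mitochondrially encoded members were lower. In DMSO cells 2 were lower and 3 higher (5.23% and 5.14% of all genes) and no mitochondrially encoded member was called. In DMSO + Nutridoma cells 26 were lower and 1 higher (12.8% and 11.2% of all genes), and 5 mitochondrially encoded members were lower. The medians over nuclear members were -0.20, -0.17 and -0.45, and over mitochondrially encoded members -0.59, -0.27 and -0.63. The replicates did not give the undifferentiated difference alike: the median over nuclear members was -0.01 in replicate 1 and -0.47 in replicate 2, and that over mitochondrially encoded members -1.004 and -0.23.

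The nuclear calls followed the chromosome of the gene in part. The 3 members higher in undifferentiated PLB-985 cells were COX6C (1.09), UQCRB (0.87) and CYC1 (0.73), and all 3 lie on chromosome 8. COX6C, a subunit of complex IV, had 329.4 and 270.1 normalized FPKM in undifferentiated PLB-985 cells, against 112.5 and 172.1 in undifferentiated HL-60 cells. The same 3 were higher in DMSO cells (1.03, 0.86 and 0.60), and UQCRB (0.50) alone in DMSO + Nutridoma cells. NDUFB9, the remaining member on this chromosome, was called in none of the 3 states (0.47, 0.52 and 0.17).

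The 5 members that were lowest in undifferentiated PLB-985 cells were UQCRQ (-0.92), a complex III subunit, NDUFS6 (-0.89), NDUFS4 (-0.72), an accessory subunit of complex I, NDUFA2 (-0.71) and COX7C (-0.70), and all 5 lie on chromosome 5. NDUFS6 had 72.6 and 72.4 normalized FPKM in undifferentiated PLB-985 cells, against 105.4 and 174.5 in undifferentiated HL-60 cells. Chromosome 5 holds 6 members, and of these 5, 2 and 5 were lower in PLB-985 in undifferentiated, DMSO and DMSO + Nutridoma cells. Over all 617 genes tested on chromosome 5 the median difference was -0.36, -0.29 and -0.40, and 26.6%, 11.8% and 39.1% were lower.

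In DMSO cells the members lower in PLB-985 were NDUFA2 (-0.64) and SDHA (-0.56), both on chromosome 5. In DMSO + Nutridoma cells the 5 lowest were UQCRQ (-1.18), ATP5G1 (-1.14), COX7C (-1.14), NDUFS6 (-1.08) and NDUFS4 (-0.89). ATP5G1, on chromosome 17, had 35.3 and 33.3 normalized FPKM there in PLB-985, against 76.7 and 77.0 in HL-60. Copy number of these chromosomes in the lines was not measured, and its part in the differences was not tested.

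Among mitochondrially encoded members MT-ND1 differed most between the lines. It had 387.4 and 866.8 normalized FPKM in undifferentiated PLB-985 cells, against 1467 and 1912 in undifferentiated HL-60 cells (-1.53 ± 0.23, adjusted p = 0.00425). MT-ND5 (-1.06), MT-CO3 (-0.95) and MT-ND3 (-0.59) were also lower in undifferentiated PLB-985 cells. In DMSO + Nutridoma cells MT-ND1 (-1.16), MT-CO3 (-0.99), MT-ND2 (-0.80), MT-ND5 (-0.72) and MT-ND6 (-0.70) were lower.

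These line counts also moved with single libraries. In undifferentiated cells the nuclear count of 9 was 0 without either undifferentiated PLB-985 replicate, 26 and 1 without undifferentiated HL-60 replicate 1 and replicate 2, and 3 to 5 without any of the PLB-985 differentiated libraries or either HL-60 DMSO replicate, and the mitochondrially encoded count of 4 was 12 without undifferentiated HL-60 replicate 2, 1 without undifferentiated PLB-985 replicate 1, and 2 without undifferentiated PLB-985 replicate 2, undifferentiated HL-60 replicate 1, either HL-60 DMSO replicate or either PLB-985 DMSO + Nutridoma replicate. In DMSO + Nutridoma cells the nuclear count of 26 was 8 and 5 without PLB-985 DMSO + Nutridoma replicate 1 and replicate 2, 11 without HL-60 DMSO + Nutridoma replicate 2 and 49 without either undifferentiated HL-60 replicate, and the mitochondrially encoded count of 5 was 0 or 1 without a library of either group compared and 12 without either undifferentiated HL-60 replicate. With no replicate block the mitochondrially encoded counts were 0 and 0 and the nuclear counts 2 and 11.

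The response to differentiation was tested for a difference between the lines. No member passed for DMSO, where 1.31% of all genes did in either direction, and none for DMSO + Nutridoma, where 4.2% did. At an unadjusted p under 0.05 there were 3 nuclear and 2 mitochondrially encoded members for DMSO and 6 and 0 for DMSO + Nutridoma. The share of all genes at that unadjusted level is not given here, so these counts are not read as results about the members. The median of the difference (PLB-985 minus HL-60) was 0.07 over nuclear and 0.35 over mitochondrially encoded members for DMSO, and -0.23 and 0.03 for DMSO + Nutridoma.

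Genes that build and serve the complexes were looked at beside the subunits, and their counts stand against the 35.8%, 35.8%, 34.7% and 33.6% of all genes that were lower and the 24.6%, 24%, 26% and 25.5% that were higher in the 4 comparisons. Of 46 assembly factors 36 were lower and 3 higher in PLB-985 DMSO cells, and 34 and 2, 32 and 3, and 28 and 2 in the other 3 comparisons. NDUFAF2, an assembly factor of complex I, had 2.35 and 3.10 normalized FPKM in PLB-985 DMSO cells, against 20.5 and 25.4 in undifferentiated cells (-2.68), and ATPAF2, which helps to assemble the catalytic head of the ATP synthase, was the highest called (0.51). Of 10 further subunits and electron carriers 6 were lower and 1 higher. CYCS, cytochrome c, had 41.1 and 30.8, against 199.8 and 181.8 in undifferentiated cells (-2.39), and COX7A2L, which joins complexes III and IV into supercomplexes, was higher (0.39), whereas it was lower in HL-60 DMSO + Nutridoma cells (-0.39). Of 8 subunit isoforms known from other tissues 2 could be tested and both fell, NDUFA4L2 (-1.61) and UQCRHL (-0.76), the second a near copy of UQCRH whose reads may be shared with it.

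Of 27 tested genes for the transcription and processing of mitochondrial RNA 23, 24, 21 and 22 were lower in the 4 comparisons, where 33.6% to 35.8% of all genes were, and none was higher. PNPT1, a mitochondrial RNA exonuclease, had 4.92 and 4.33 normalized FPKM in PLB-985 DMSO cells, against 36.8 and 35.2 in undifferentiated cells (-2.72), and FASTKD5, which processes mitochondrial precursor RNA, was the least changed of those called (-0.42). Of 10 genes for upkeep of mitochondrial DNA 4, 4, 4 and 4 were lower and 2, 2, 4 and 2 higher, shares close to those of all genes except for the 4 higher in HL-60 DMSO cells. In PLB-985 DMSO cells C10orf2, the mitochondrial helicase Twinkle, had 6.09 and 2.62, against 49.2 and 29.6 (-2.95), and TK2, the mitochondrial thymidine kinase, had 31.6 and 32.1, against 4.78 and 4.29 (2.57).

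Both mitochondrial ribosomal RNAs were higher in the first 3 comparisons and MT-RNR2 alone in HL-60 DMSO + Nutridoma cells. MT-RNR1 had 362.2 and 664.9 normalized FPKM in PLB-985 DMSO cells, against 65.6 and 128.0 in undifferentiated cells (2.41), and MT-RNR2 had 1948 and 3546, against 344.4 and 575.5 (2.56). In HL-60 DMSO cells MT-RNR1 had 924.3 and 1467 and MT-RNR2 had 3161 and 4641. In HL-60 DMSO + Nutridoma cells MT-RNR1 had 347.8 and 609.7 and MT-RNR2 had 2138 and 3506. Undifferentiated HL-60 cells had 473.7 and 443.1 for MT-RNR1 and 1641 and 1246 for MT-RNR2. The paper found noncoding RNAs much more variable, perhaps in part through the poly(A) enrichment, so these values may not give rRNA levels.

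Of 8 regulators of respiratory genes that could be tested 4, 4, 5 and 6 were lower. MYC, a transcription factor known to raise mitochondrial biogenesis, had 9.70 and 6.21 normalized FPKM in PLB-985 DMSO cells, against 750.1 and 518.4 in undifferentiated cells (-6.15), and GABPB1, a subunit of the ETS factor GABP, was the least changed of those called (-0.63). NRF1, the factor of the half-site counted above, passed no test in PLB-985 (-0.26 and -0.35) and fell in HL-60 (-0.55 and -0.85). Of 14 citric acid cycle genes 12, 12, 13 and 10 were lower and 1, 1, 0 and 1 higher. FH, fumarate hydratase, had 17.3 and 13.2, against 76.5 and 58.3 (-2.07), and OGDH, a subunit of the 2-oxoglutarate dehydrogenase complex, was higher (0.40).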

How the data were processed

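RNA was sequenced as poly(A) libraries (75 bases, single end) from 14 cultures. The authors aligned reads with STAR 2.4 to GRCh38.p5 with GENCODE 24 and deposited FPKM from Cufflinks 2.2.1, which hold no counts, so that depth and counting error are unknown. The authors also deposited log10 values of normalized FPKM + 0.0001, with 1 scaling factor per library (0.596 to 0.804) from uniformly expressed genes. All columns were used, and 0 were left out.

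Log2(normalized FPKM + 1) was fitted with limma 3.58.1 (R 4.3.3) over 13778 genes with at least 1 normalized FPKM in 2 of 12 replicated libraries, with the 6 groups and the replicate block as terms, a variance trend and Benjamini-Hochberg adjustment. Fold changes of low genes are understated by the added constant. The block was used because the replicate number marks the day of the experiment, and same-numbered samples deviated together (r of 0.653 to 0.852 over 15 pairs of groups). The replicates were cultures of the same lines on separate days. The fit was tested on simulated data. Alternatives were other scalings, constants (0.1, 0.5), filters (5, none), no replicate block, no variance trend and leaving out each replicated library. Motifs were searched with Python 3.11.15 in RefSeq windows (GRCh38.p14). Gene positions came from GENCODE 44.

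The members and gene lists were chosen with earlier results of these data known. Genes named were all 13 MT- members, in each comparison with undifferentiated cells the nuclear member of each complex with the highest and the lowest change, the complex II and subunit c genes, in other comparisons the called members (up to 5 per direction, by size), members listed at 0, and of each list the called genes with the highest and lowest change in PLB-985 DMSO cells. Others were named as members called in all or in none of the comparisons.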

Additional observations from a re-analysis of the deposited data

Results flagged for a closer look

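For 17 members both PLB-985 replicates moved one way and both HL-60 replicates the other under the same contrast. How many of all genes split in this way was not counted, so the number is not read as particular to the members. The values given are the mean log2 ratio of PLB-985 minus that of HL-60, and in every case PLB-985 was below 0 and HL-60 above it. No cause was tested.

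Against undifferentiated cells, DMSO + Nutridoma gave such a split for UQCRB (-0.37; -0.12 and -0.16 in PLB-985, against 0.25 and 0.22 in HL-60) and NDUFA4 (-0.64; -0.45 and -0.29, against 0.38 and 0.16). The limma test of this difference gave an adjusted p of 0.273 for UQCRB and 0.149 for NDUFA4, so that neither passed.

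Between DMSO + Nutridoma and DMSO cells the split was seen for 16 members, and the difference between the lines was not tested. In complex I they were NDUFS4 (-0.72), NDUFS8 (-0.44), NDUFA7 (-0.41) and NDUFB1 (-0.25). In complex II they were SDHB (-0.34) and SDHD (-0.31), and in complex III UQCRC2 (-0.55) and UQCRFS1 (-0.27). In complex IV the mitochondrially encoded core subunits MT-CO2 (-0.66), MT-CO1 (-0.53) and MT-CO3 (-0.48) and the nuclear NDUFA4 (-0.52) were split, and in complex V ATP5B (-0.55), ATP5A1 (-0.37), ATP5G2 (-0.30) and ATP5H (-0.25). Some of the ratios behind these values were close to 0, for example -0.02 for ATP5B in replicate 2 of PLB-985 and 0.01 for UQCRFS1 in replicate 1 of HL-60.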

How the results depend on the processing

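The comparisons with undifferentiated cells are given in the order PLB-985 DMSO, PLB-985 DMSO + Nutridoma, HL-60 DMSO and HL-60 DMSO + Nutridoma. Every nuclear median stayed below 0 and every mitochondrially encoded median above 0 in these 4 under all alternatives run. The cause of the changes below was not tested. With no replicate block the mitochondrially encoded members called higher were 1, 0, 1 and 1, the nuclear members called lower in the 4th comparison 23, the members higher in HL-60 DMSO + Nutridoma than DMSO cells 1, and those lower in PLB-985 than HL-60 2 nuclear and 0 mitochondrially encoded in undifferentiated cells and 11 and 0 in DMSO + Nutridoma cells. Scaled to genes other than MT-, nuclear members called lower were 28, 29 and 35 in the first 3 comparisons with medians of -0.38, -0.37 and -0.42, the mitochondrially encoded medians were 1.20, 1.02 and 0.68 and their counts in the last 3 comparisons 12, 10 and 11. The median over all genes was 0.12, 0.14, 0.24 and 0.04 in the 4 comparisons on that scale. HL-60 DMSO + Nutridoma against DMSO then gave 1 nuclear member, a nuclear median of 0.0893 and a mitochondrially encoded median of -0.0286, which turned round from 0.20. PLB-985 against HL-60 in DMSO + Nutridoma cells gave 12 nuclear and 2 mitochondrially encoded members lower. UQCRB in HL-60 DMSO against undifferentiated cells turned round to 0.36, from -0.09. Without the authors' normalization the nuclear medians were -0.61 and -0.58 in the first 2 comparisons and the mitochondrially encoded median 0.96 in the first. HL-60 DMSO + Nutridoma against DMSO gave 1 member and a median of 0.18, and PLB-985 against HL-60 gave 5 nuclear members lower in undifferentiated cells and 11 nuclear and 3 mitochondrially encoded in DMSO + Nutridoma cells. Median-of-ratios scaling gave nuclear medians of -0.59 and -0.61, a mitochondrially encoded median of 0.99 in the first comparison and 11 called in the 4th, 2 members for HL-60 DMSO + Nutridoma against DMSO and 8 mitochondrially encoded members lower in PLB-985 DMSO + Nutridoma cells. With no filter 6, 2 and 3 mitochondrially encoded members were called in the 1st, 3rd and 4th comparisons, the nuclear median of the 2nd was -0.74, no member (0) was called for HL-60 DMSO + Nutridoma against DMSO, and PLB-985 against HL-60 gave 3 nuclear and 2 mitochondrially encoded members lower in undifferentiated cells and 16 and 1 in DMSO + Nutridoma cells. A constant of 0.1 moved the nuclear median of the 2nd comparison to -0.79, and no variance trend gave 3 members for HL-60 DMSO + Nutridoma against DMSO.

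Leaving out 1 replicate at a time gave 36 to 60, 38 to 59, 46 to 62 and 27 to 55 nuclear members lower, nuclear medians of -0.86 to -0.63, -0.80 to -0.69, -1.05 to -0.61 and -0.78 to -0.17, 4 to 10, 2 to 9, 2 to 9 and 3 to 11 mitochondrially encoded members higher, and medians of 0.60 to 1.02, 0.40 to 0.72, 0.0361 to 0.64 and 0.22 to 0.94. For HL-60 DMSO + Nutridoma against DMSO it gave 0 to 30 members, nuclear medians of 0.25 to 0.40 and mitochondrially encoded medians of 0.11 to 0.27. For PLB-985 against HL-60 it gave 0 to 26 nuclear and 1 to 12 mitochondrially encoded members lower in undifferentiated cells and 5 to 49 and 0 to 12 in DMSO + Nutridoma cells. Of the values of single members under the other alternatives, 3587 stayed as they were, called or not, 73 gained a call, 227 lost one and 1 turned round. With 2 replicates a group and 5 residual degrees of freedom, a missed threshold does not show that levels were alike, and with FPKM alone the counting error behind low values is unknown.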

Other observations

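Over the 436 genes tested on chromosome 8 the median difference of PLB-985 from HL-60 was 0.77 in undifferentiated, 0.61 in DMSO and 0.58 in DMSO + Nutridoma cells, and 248, 180 and 210 of them were called higher in PLB-985. On chromosome 5 the medians were -0.36, -0.29 and -0.40 over 617 genes. Chromosome 13, which holds no member, had medians of -0.29, -0.34 and -0.38 over 262 genes.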
